A study of Mus musculus with 6 samples.

Results

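The genes described here encode enzymes of glycolysis, the pathway that breaks glucose down to pyruvate and lactate: Hk1, Hk2, Gpi1, Pfkl, Pfkp, Aldoa, Gapdh, Pgk1, Pkm and Ldha. They were taken as a named list, matched by Entrez gene ID, and all 10 were among the 18822 genes with values in the files. The RNA came from glomeruli, the capillary tufts that filter blood in the kidney, and the mice were of the C57BL/6J strain and had diabetic kidney disease. The 3 PR3 KO libraries came from mice lacking proteinase 3, a neutrophil serine protease encoded by Prtn3, and the 3 WT libraries from mice without that deletion. Both genotypes had the disease, and no library was labelled as healthy. The sources used here do not say how diabetes was brought about, how old the mice were, which knockout allele they carried, or whether a library held 1 animal or several. A p-value therefore reflects the spread among these libraries alone, and that spread may be technical. Values are FPKM, fragments per kilobase of transcript scaled to the number of mapped fragments, as deposited, with mean ± SD over n = 3 libraries per genotype.

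Hexokinase, phosphofructokinase and pyruvate kinase catalyse the steps of glycolysis that are in effect one-way and are the points where its flow is controlled. The enzymes between them, and lactate dehydrogenase after them, work near equilibrium and serve the reverse pathway, gluconeogenesis, as well. In the kidney the proximal tubule is known for making glucose rather than breaking it down, while glomerular and distal nephron cells use glycolysis. Excess glucose flux through and around this pathway is a classical theme of diabetic kidney disease.

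Prtn3, the deleted gene, was at 0.14, 0 and 0.07 FPKM in PR3 KO and at 0.46, 0.21 and 0.22 FPKM in WT, levels too low to be a firm check of the labels. Of 626 single-exon genes, 21 to 38 per library had low values above a floor, and these were binned by FPKM times length. The fullest bin, 0.06 to 0.08 FPKM times kilobases in each library, held 11 to 21 genes. If it stands for 1 fragment, the depth was roughly between 12500000 and 16700000 fragments in each library. The smallest FPKM were left out of the bins, so a greater depth could have been missed. The 10 most abundant genes took 19.7% to 22.2% of the FPKM sum in PR3 KO and 9.08% to 12.6% in WT. Markers of several cell types moved with genotype. Of 20 proximal tubule markers 14 rose (limma), with sums of 59029 to 75589 FPKM in PR3 KO and 11809 to 31255 in WT (15532 to 18483 and 6562 to 12745 without Kap). Pck1 was among those that rose, while Fbp1, also on the list, did not pass (limma adjusted p = 0.0584). All 14 glomerular endothelium markers fell (1441 to 2072 against 3631 to 4467 FPKM), as did all 12 macrophage markers (99.3 to 152 against 667 to 1408 FPKM), 6 of 13 podocyte markers (418 to 659 against 752 to 1212 FPKM), 5 of 9 mesangium and smooth muscle markers (107 to 179 against 193 to 320 FPKM) and 5 of 12 markers of the loop, distal tubule and collecting duct (792 to 1202 against 1250 to 1596 FPKM). Of 10 neutrophil markers 1 rose, Ly6g, at a low level (1.76 ± 0.729 against 0.523 ± 0.205 FPKM). The neutrophil sums of PR3 KO 1 and PR3 KO 2 (38.9 and 31.5 FPKM) lay below those of all WT libraries (152 to 256 FPKM), and that of PR3 KO 3 (403 FPKM) lay above. Of 6 erythroid markers 1 fell (697 to 2798 against 1401 to 1743 FPKM). With median-of-ratios scaling the markers that were lower numbered 13 for endothelium, 12 for macrophages, 3 each for podocytes and for mesangium and smooth muscle, and 1 for the loop, distal tubule and collecting duct, and 16 proximal tubule markers were higher. Over all tested genes 11.7% rose and 41.1% fell as deposited, and 25.6% were higher and 22.2% lower with that scaling. As deposited, the counts of podocyte markers and of loop, distal tubule and collecting duct markers that fell were near the share over all genes. WT 2 had the lowest proximal tubule sum of all libraries and the highest endothelial, podocyte, mesangial and macrophage sums. None of these markers was at 0 in all libraries. The part of these markers in the differences described next was not tested, and in bulk RNA fewer cells of a type and less RNA per cell cannot be told apart.

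Members differed in both directions between the genotypes. Hk1, Pfkp and Pkm, of the one-way steps, fell in PR3 KO, and Gpi1 and Gapdh, of the reversible steps, rose. Aldoa, Pgk1 and Ldha were higher in every PR3 KO library than in any WT library but did not pass the test as deposited, and Pfkl, also of a one-way step, overlapped between genotypes. Hk2 was measured at under 1 FPKM in every library and lay below the filter. Isozymes outside the members did not all follow this split by step. Hk3 fell and Ldhb and Pgam1 rose, but Aldoc and Eno3, of reversible steps, fell. Pfkm and Pklr, of one-way steps, had higher means in PR3 KO and did not pass as deposited. The test was limma on log2(FPKM + 1) over the 12388 genes whose mean reached 1 FPKM, with Benjamini-Hochberg adjustment over all of them and a threshold of 0.05. Fold changes are PR3 KO minus WT on that log2 scale, which understates the change of low genes.

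Of the 9 members tested, 2 rose, 3 fell and 4 did not pass (limma). Over all tested genes 52.8% passed, of which the higher genes made up 11.7% of those tested and the lower genes 41.1%, so 5 of 9 was near the share over all genes. The PR3 KO libraries lay above all WT libraries for 5 members and below them for 3, where these shares were 16.0% and 49.1% over all tested genes and 65.1% in either direction. The median log2 fold change was 0.25 over the tested members and -0.26 over all tested genes. FPKM are relative to all mapped fragments, so the libraries were also rescaled by median-of-ratios factors, which put the median of all genes at 0.03, a shift of 0.29. With that scaling Aldoa, Pgk1 and Ldha also passed, which gave 5 members higher and the same 3 lower, where 25.6% of all genes were then higher and 22.2% lower. No direction of a member that passed either way turned with the scaling.

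**Figure D1:**
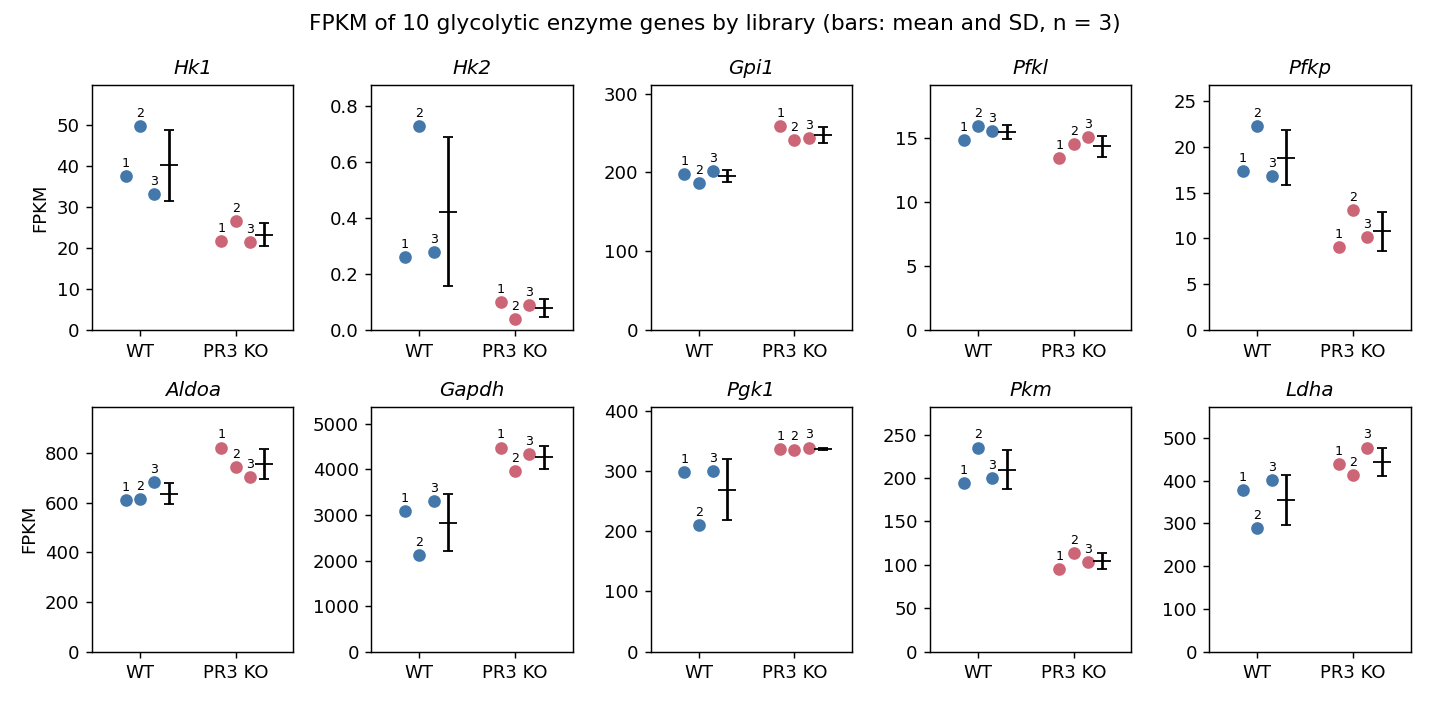
FPKM (vertical axes, each starting at 0) of the 10 glycolytic enzyme genes in the 3 WT and 3 PR3 KO libraries, numbered by replicate, with bars for mean and SD. Hk1, Hk2, Pfkp and Pkm are lower in every PR3 KO library, Gpi1, Aldoa, Gapdh, Pgk1 and Ldha higher, and Pfkl overlaps.

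WT 2 was the highest of the 6 libraries for Hk1, Pfkl, Pfkp and Pkm and the lowest for Gpi1, Gapdh, Pgk1 and Ldha, which left Aldoa as the only one of the 9 members tested where it was neither. Hk2 was also highest there. For these genes other than Pfkl, this library lay farther from the PR3 KO libraries than WT 1 and WT 3 did.

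Several glycolytic genes are classical targets of the hypoxia-inducible factor HIF, whose binding sites contain a core of ACGTG or GCGTG. Only the form ACGTG, called the core here, was searched for. The 250 bases upstream of each RefSeq start site (GRCm38.p6) were searched for this core on both strands, for the E-box CACGTG, which contains it, for the GC box GGGCGG and for the TATA box TATAAA. The members had 15 such windows, as some genes have several starts. The core was present in 6 of 15 windows, belonging to Hk2, Aldoa, Pgk1, Pkm and Ldha, and in 16.6% of all 32851 windows, among which the windows of the members are counted. The 2 Aldoa windows overlap and share 1 match, so the 6 windows hold 5 separate stretches with the core. The E-box was in 1 member window and 6.02% of all windows, the GC box in 8 and 32.7%, and the TATA box in 0 and 12.4%. Windows of 5 members are shown 5′ to 3′ on the strand of the gene, with the HIF core, on either strand, in capitals. They are from members that differed in opposite directions: Ldha and Pgk1, which hold several copies of the core, Pkm, which holds 1 at its second start, and Pfkp and Gapdh, which hold none. The Pfkp and Gapdh windows do hold the form GCGTG, which is not marked.
Ldha, plus strand, chr7:46845554-46845803: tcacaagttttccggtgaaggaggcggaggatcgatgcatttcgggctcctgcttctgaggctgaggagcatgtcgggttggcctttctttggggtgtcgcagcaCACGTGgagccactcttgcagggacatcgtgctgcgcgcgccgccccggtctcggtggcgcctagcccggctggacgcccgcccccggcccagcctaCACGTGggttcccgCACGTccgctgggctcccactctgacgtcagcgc
Pgk1, plus strand, chrX:106186850-106187099: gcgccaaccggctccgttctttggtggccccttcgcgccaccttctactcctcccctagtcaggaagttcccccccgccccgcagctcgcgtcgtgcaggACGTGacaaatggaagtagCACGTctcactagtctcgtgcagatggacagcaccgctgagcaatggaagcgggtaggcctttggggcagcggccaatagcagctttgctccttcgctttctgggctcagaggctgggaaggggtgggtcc
Pkm, plus strand, chr9:59656977-59657226: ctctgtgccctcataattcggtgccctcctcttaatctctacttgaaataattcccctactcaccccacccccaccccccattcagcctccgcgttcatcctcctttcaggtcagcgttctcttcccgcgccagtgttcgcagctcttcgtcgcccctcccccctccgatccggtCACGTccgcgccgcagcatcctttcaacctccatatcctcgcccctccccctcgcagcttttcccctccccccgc
Pfkp, minus strand, chr13:6648772-6649021: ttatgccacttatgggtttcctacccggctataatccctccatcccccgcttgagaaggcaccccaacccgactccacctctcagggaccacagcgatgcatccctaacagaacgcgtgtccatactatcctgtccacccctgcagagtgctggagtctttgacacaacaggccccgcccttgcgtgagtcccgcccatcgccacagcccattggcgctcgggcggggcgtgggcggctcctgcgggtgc
Gapdh, minus strand, chr6:125165774-125166023: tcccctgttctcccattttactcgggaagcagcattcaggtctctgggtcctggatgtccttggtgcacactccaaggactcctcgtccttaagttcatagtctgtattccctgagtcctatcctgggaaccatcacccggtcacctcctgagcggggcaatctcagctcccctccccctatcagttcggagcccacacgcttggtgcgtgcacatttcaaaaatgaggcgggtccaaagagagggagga

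In the Ldha window the core matched 5 times, 4 of them as the overlapping strands of 2 E-boxes, with the nearest match 30 bases before the start. In the Pgk1 window it matched 2 times, between 150 and 127 bases before the start, and in the Pkm window once, 75 to 71 bases before it. Of the members with a match, Pkm fell and Hk2 was lower in every PR3 KO library. Pgk1, Ldha and Aldoa, also with a match, were higher in every PR3 KO library. Members without a match to ACGTG included Gapdh and Gpi1, which rose, and Hk1 and Pfkp, which fell. Genes of both directions were thus found with and without ACGTG in these windows. Any part of HIF in the differences was not tested. A match describes the letters of the reference and does not show binding, and the absence of a match concerns ACGTG in this window alone.

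**Figure D2:**
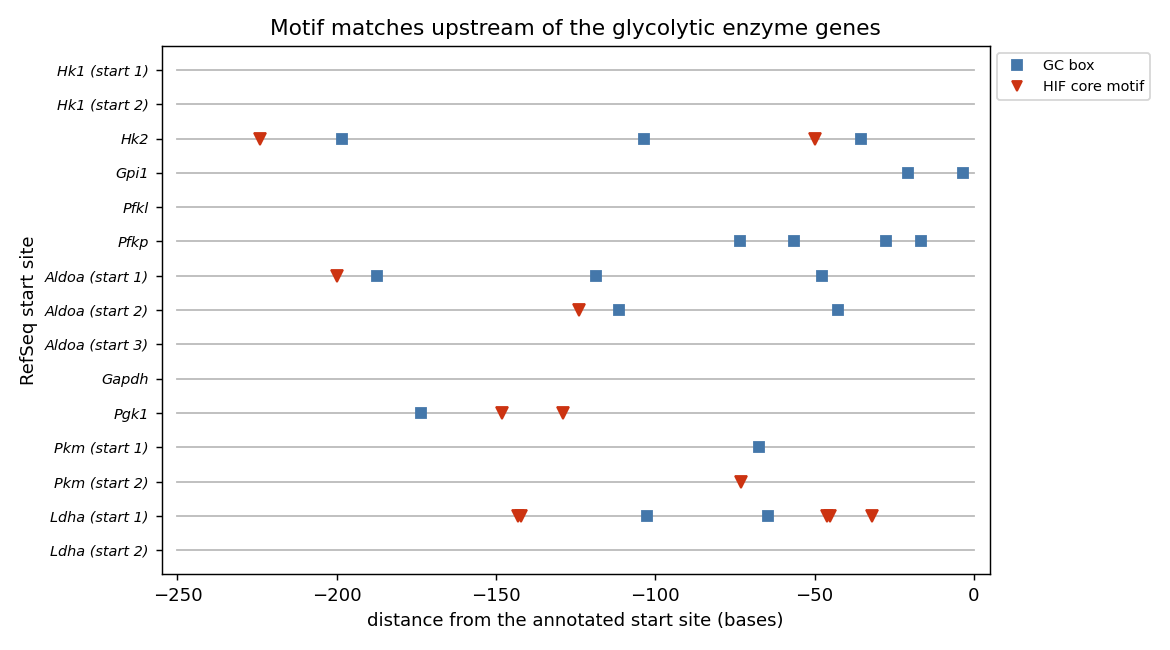
Positions of matches to the HIF core motif in the form ACGTG (triangles) and the GC box (squares) in the 250 bases before each annotated start site (horizontal axis, bases, with 1 line per RefSeq start). Ldha has 5 core matches at 1 of its starts, Pgk1 and Hk2 have 2, and Hk1, Gpi1, Pfkl, Pfkp and Gapdh have none.

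Hexokinase traps glucose in the cell as glucose-6-phosphate. Hk1, the broadly expressed isozyme (minus strand of chromosome 10, 62268855 to 62379920, GRCm38.p6), was at 21.65, 26.61 and 21.55 FPKM in PR3 KO 1 to 3 and at 37.63, 49.83 and 33.11 FPKM in WT 1 to 3, the order kept for every gene. No PR3 KO library reached the lowest WT library, and WT 2 was the highest of all. The mean fell from 40.2 ± 8.65 to 23.3 ± 2.89 FPKM (-0.75 on the log2 scale with SE 0.16, adjusted p = 0.00657 in limma).

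Hk2, the isozyme that insulin and low oxygen induce in other tissues (minus strand of chromosome 6, 82725025 to 82774454, GRCm38.p6), was at 0.1, 0.04 and 0.09 FPKM in PR3 KO and at 0.26, 0.73 and 0.28 FPKM in WT. The genotypes did not overlap, and WT 2 stood well above the other libraries (0.0767 ± 0.0321 against 0.423 ± 0.266 FPKM, p = 0.1 in an exact, two-sided permutation test, as low as 3 against 3 libraries allow). If the fullest bin of low single-exon values stands for 1 fragment, these levels amount to 2.8 to 9.2 fragments per PR3 KO library. The same reckoning gives 17.9 to 67.1 fragments per WT library over the 5513 exonic nucleotides of Hk2. Hk2 made up 0.34% ± 0.168 of the summed FPKM of Hk1 and Hk2 in PR3 KO and 0.99% ± 0.401 in WT, so Hk1 was by far the more abundant of the pair in both genotypes. Among the other hexokinases, Hk3, the isozyme of myeloid cells, fell from 2.82 ± 2.56 to 0.36 ± 0.398 FPKM (-1.33 on the log2 scale, adjusted p = 0.0321 in limma), and Hkdc1 lay below the filter.

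Gpi1 encodes glucose-6-phosphate isomerase, which makes fructose-6-phosphate (minus strand of chromosome 7, 34201327 to 34230336, GRCm38.p6). It was at 259.29, 240.89 and 243.13 FPKM in PR3 KO and at 198.2, 186.34 and 201.99 FPKM in WT. The libraries of a genotype lay close together, with a clear gap between the genotypes. The mean rose from 196 ± 8.16 to 248 ± 10 FPKM (0.34 on the log2 scale with SE 0.11, adjusted p = 0.0328 in limma). The call did not hold without PR3 KO 1, PR3 KO 2, PR3 KO 3 or WT 1 in turn (log2 fold changes 0.31, 0.36, 0.35 and 0.35, limma adjusted p = 0.115, 0.0841, 0.0927 and 0.0613).

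Phosphofructokinase commits the sugar to glycolysis and is a tetramer of liver (Pfkl), platelet (Pfkp) and muscle (Pfkm) subunits. Pfkp (minus strand of chromosome 13, 6579874 to 6649060, GRCm38.p6) was at 9.01, 13.11 and 10.17 FPKM in PR3 KO and at 17.37, 22.31 and 16.83 FPKM in WT. Again the genotypes were apart and WT 2 was the highest. The mean fell from 18.8 ± 3.02 to 10.8 ± 2.11 FPKM (-0.76 on the log2 scale with SE 0.16, adjusted p = 0.00581 in limma). Pfkl (minus strand of chromosome 10, 77986947 to 78009807, GRCm38.p6) was at 13.45, 14.58 and 15.08 FPKM in PR3 KO and at 14.9, 15.98 and 15.55 FPKM in WT. These ranges overlapped, and the difference did not pass (-0.10 on the log2 scale with SE 0.09, adjusted p = 0.356 in limma). With median-of-ratios scaling its sign turned, to 0.21 (limma adjusted p = 0.0683). Pfkm was at 17.1 ± 1.51 against 15 ± 2.05 FPKM and did not pass (limma adjusted p = 0.235), but passed with that scaling (0.49, limma adjusted p = 0.00722).

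The subunits thus ranked differently in the genotypes. The ratio of Pfkp to Pfkl FPKM was 0.67, 0.899 and 0.674 in PR3 KO and 1.17, 1.4 and 1.08 in WT, so Pfkp was the more abundant of the pair in each WT library and the less abundant in each PR3 KO library. Such a ratio within a library does not depend on how libraries are scaled. Of the summed FPKM of the phosphofructokinase subunits, Pfkp held 23.4%, 28.2% and 24.4% in PR3 KO and 36.4%, 40.5% and 37.3% in WT, a difference of -12.7 percentage points (p = 0.1 in the exact permutation test, 0.167 adjusted over the 5 isozyme shares computed). With 3 against 3 libraries no such share can reach an exact p under 0.1.

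**Figure D3:**
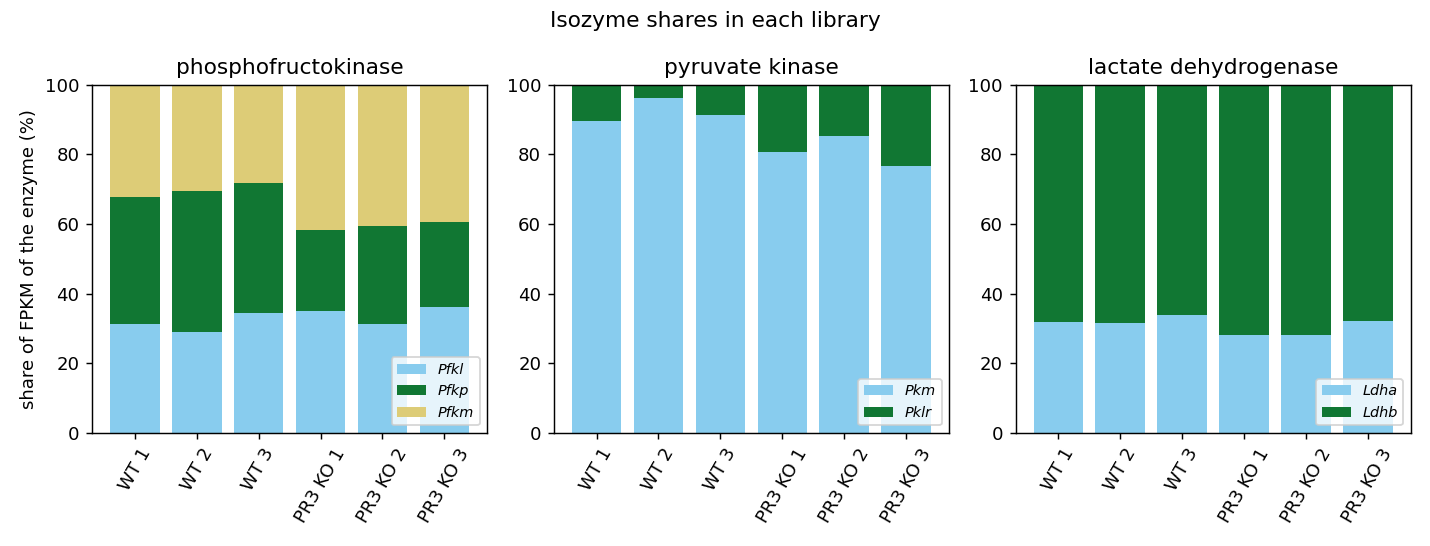
Share of summed FPKM (%, vertical axis) held by each isozyme of phosphofructokinase, pyruvate kinase and lactate dehydrogenase in the 6 libraries. The Pfkp share lies between 23.4% and 28.2% in PR3 KO and between 36.4% and 40.5% in WT, and the Pklr share is higher in every PR3 KO library than in any WT library.

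Aldolase splits fructose-1,6-bisphosphate into triose phosphates, and Aldoa is its broadly expressed isozyme (minus strand of chromosome 7, 126795234 to 126800994, GRCm38.p6). It was at 821.6, 743.34 and 700.96 FPKM in PR3 KO and at 608.56, 613.81 and 684.66 FPKM in WT. The lowest PR3 KO library lay just above the highest WT library, and the difference did not pass (0.25 on the log2 scale with SE 0.13, adjusted p = 0.149 in limma), but did with median-of-ratios scaling (0.58, limma adjusted p = 0.0291). The Aldoa retrogene Aldoart1, named after its values were seen, was listed at a mean of 0.637 FPKM in PR3 KO and 2 FPKM in WT, opposite in direction to Aldoa; reads can be split between such copies, so its value is uncertain. The isozyme Aldoc fell from 4.33 ± 0.955 to 2.54 ± 0.57 FPKM (-0.59 on the log2 scale, adjusted p = 0.0213 in limma), a call that did not hold with median-of-ratios scaling (-0.34, limma adjusted p = 0.0845).

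Gapdh, whose product oxidises glyceraldehyde-3-phosphate and yields NADH, was the most abundant member (minus strand of chromosome 6, 125161852 to 125166467, GRCm38.p6). It was at 4481.13, 3972.18 and 4334.81 FPKM in PR3 KO and at 3083.61, 2121.32 and 3298.33 FPKM in WT. All PR3 KO libraries were above all WT libraries, and WT 2 was the lowest. The mean rose from 2834 ± 627 to 4263 ± 262 FPKM (0.61 on the log2 scale with SE 0.20, adjusted p = 0.0334 in limma). The call was lost without PR3 KO 1, PR3 KO 2 or PR3 KO 3 in turn (limma adjusted p = 0.107, 0.0674 and 0.101), and without WT 2 it held at a lower 0.42 (limma adjusted p = 0.0141). Gapdh is often used as a reference gene, and it has many processed copies in the mouse genome whose reads the authors' counting could have shared. The same holds for other members with processed copies, such as Aldoa, Pgk1 and Ldha.

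Pgk1, which makes the first ATP of the pathway (plus strand of chromosome X, 106187100 to 106203699, GRCm38.p6), was at 336.14, 335.53 and 338.86 FPKM in PR3 KO and at 297.61, 210.28 and 299.28 FPKM in WT. The PR3 KO libraries were nearly equal, and WT 2 lay far below the other WT libraries. The difference did not pass as deposited (0.34 on the log2 scale with SE 0.16, adjusted p = 0.106 in limma) and was 0.17 without WT 2 (limma adjusted p = 0.164). It was 0.67 with median-of-ratios scaling (limma adjusted p = 0.0293).

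Pkm encodes pyruvate kinase of muscle and most other tissues, the last step to pyruvate (plus strand of chromosome 9, 59656576 to 59679372, GRCm38.p6). It was at 94.9, 113.67 and 103.61 FPKM in PR3 KO and at 193.84, 235.17 and 200.34 FPKM in WT. The highest PR3 KO library lay far below the lowest WT library. The mean fell from 210 ± 22.2 to 104 ± 9.39 FPKM, so WT held 2.02 times the PR3 KO level, and its fold change was the largest in size among the members tested as deposited (-1.003 on the log2 scale with SE 0.13, adjusted p = 0.00107 in limma). With median-of-ratios scaling it was -0.67, smaller in size than the 0.94 of Gapdh (limma adjusted p = 0.00513 and 0.0215). Gene-level FPKM do not separate its splice forms, known as M1 and M2. Pklr, the pyruvate kinase of liver and proximal tubule, was at 24.6 ± 6.34 against 16.7 ± 7 FPKM (limma adjusted p = 0.162). Its share of pyruvate kinase FPKM was 19.3%, 14.7% and 23.4% in PR3 KO against 10.3%, 3.62% and 8.77% in WT, with no overlap (p = 0.1 in the exact permutation test, 0.167 adjusted over the 5 shares computed).

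Ldha encodes the lactate dehydrogenase subunit that favours lactate production (plus strand of chromosome 7, 46842274 to 46855627, GRCm38.p6). It was at 438.31, 412.5 and 477.31 FPKM in PR3 KO and at 377.11, 289.19 and 400.34 FPKM in WT. The genotypes were apart by a narrow gap, with WT 2 the lowest. The difference did not pass as deposited (0.33 on the log2 scale with SE 0.16, adjusted p = 0.112 in limma) or without WT 2 (0.19, limma adjusted p = 0.188), and was 0.66 with median-of-ratios scaling (limma adjusted p = 0.0302). Ldhb, the subunit of oxidative tissues, rose from 741 ± 99.2 to 1064 ± 60.7 FPKM (0.53 on the log2 scale, adjusted p = 0.02 in limma) and was the more abundant subunit in every library. Ldha held 29.4% ± 2.39 of lactate dehydrogenase FPKM in PR3 KO and 32.4% ± 1.21 in WT, which overlapped (p = 0.3 in the exact permutation test).

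Across the 6 libraries the members ranked, by mean FPKM, Gapdh (3549), Aldoa (695), Ldha (399), Pgk1 (303), Gpi1 (222), Pkm (157), Hk1 (31.7), Pfkl (14.9), Pfkp (14.8) and Hk2 (0.25). Pfkl and Pfkp were nearly level in this mean over both genotypes, but Pfkp was above Pfkl in every WT library and below it in every PR3 KO library, and Gpi1 and Pkm overlapped in WT but were far apart in PR3 KO. The other neighbours in this order kept it in every library. Ratios within a library differed between genotypes. Gapdh was 47.2, 34.9 and 41.8 times Pkm in PR3 KO and 15.9, 9.02 and 16.5 times in WT. The ratio of Ldha to Pkm was 4.62, 3.63 and 4.61 in PR3 KO and 1.95, 1.23 and 2 in WT. These pairs were picked after the values were seen, so they are descriptions with no test.

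**Figure D4:**
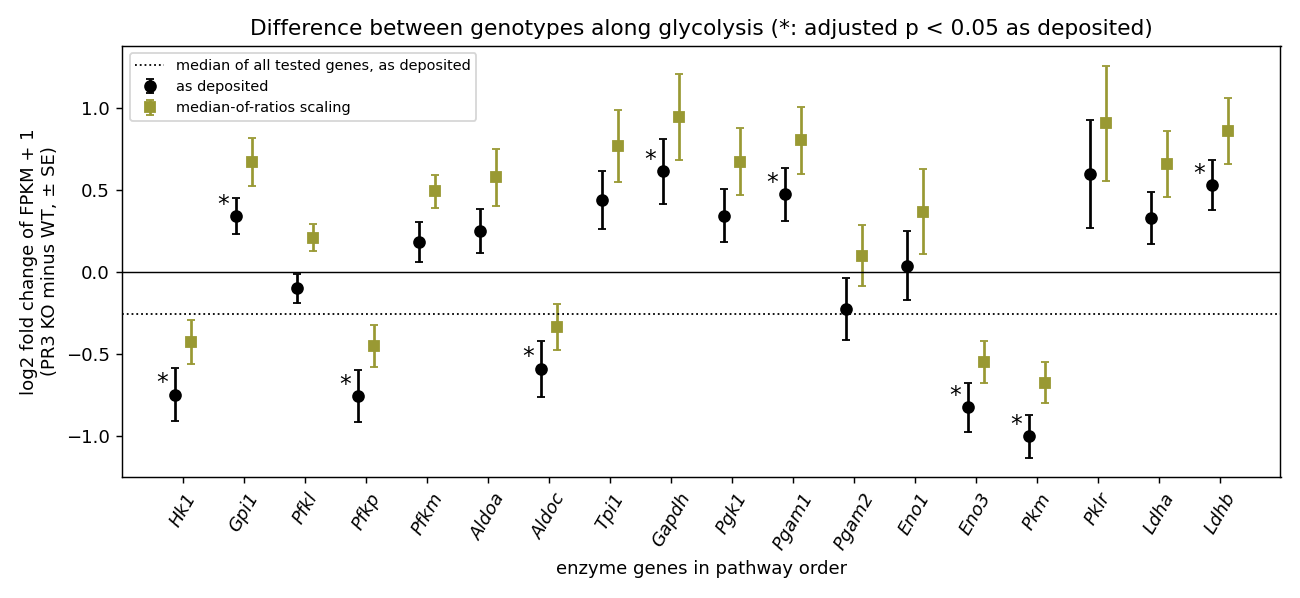
Log2 fold change of FPKM + 1 (PR3 KO minus WT, vertical axis, bars ± SE) for tested glycolytic enzyme genes in pathway order, as deposited and with median-of-ratios scaling, with stars at an adjusted p under 0.05 as deposited and a dotted line at the median of all tested genes as deposited. Hk1, Pfkp and Pkm lie below 0 on both scales, while Pfkl changes sign between them.

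The rest of the pathway came from a list of 19 other enzymes and isozymes, of which 13 were tested. Of these 2 rose and 3 fell (limma), with a median log2 fold change of 0.04, and after rescaling 4 were higher and 2 lower, with a median of 0.37. These counts, and those of the lists below, stand beside 11.7% risen and 41.1% fallen over all tested genes. After rescaling those shares were 25.6% and 22.2%. Besides Ldhb, Pgam1, the phosphoglycerate mutase found in most tissues, rose from 156 ± 30.5 to 214 ± 9.22 FPKM (0.47 on the log2 scale, adjusted p = 0.0394 in limma). Besides Hk3 and Aldoc, the muscle enolase gene Eno3 fell from 7.59 ± 1.55 to 3.81 ± 0.463 FPKM (-0.83 on the log2 scale, adjusted p = 0.00338 in limma). Eno1, the main enolase, was at 785 ± 83.8 against 780 ± 193 FPKM (limma adjusted p = 0.893). WT 2 was its lowest library (558 FPKM), while WT 1 and WT 3 (873 and 909 FPKM) lay above every PR3 KO library. Tpi1, triose-phosphate isomerase, was higher in every PR3 KO library but did not pass (0.44, limma adjusted p = 0.0661), and passed once libraries were rescaled (0.77, limma adjusted p = 0.0237).

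The isozymes of 10 steps were also summed. Hk1, Hk2, Hk3 and Hkdc1 summed to 24.3 ± 2.62 FPKM in PR3 KO and 44.6 ± 11.7 in WT, and pyruvate kinase genes to 129 ± 9.71 and 227 ± 15.2, in both cases with no overlap. Phosphofructokinase genes summed to 42.2 ± 4.04 and 49.3 ± 5.17 FPKM, which overlapped. The sums for glyceraldehyde-3-phosphate dehydrogenase (4263 ± 262 against 2835 ± 627) and lactate dehydrogenase (1507 ± 51.9 against 1097 ± 156) were higher in every PR3 KO library than in any WT library. Enolase, at 789 ± 84.1 and 788 ± 192 FPKM in the genotypes, overlapped. Its sums in WT 1 and WT 3 (880 and 917 FPKM) lay above every PR3 KO library (696 to 860 FPKM), and WT 2 (568 FPKM) lay below them. These sums were formed after the values were seen, so no test of them is given. Among all tested genes taken singly, the genotypes did not overlap for 65.1%, in either direction.

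**Figure D5:**
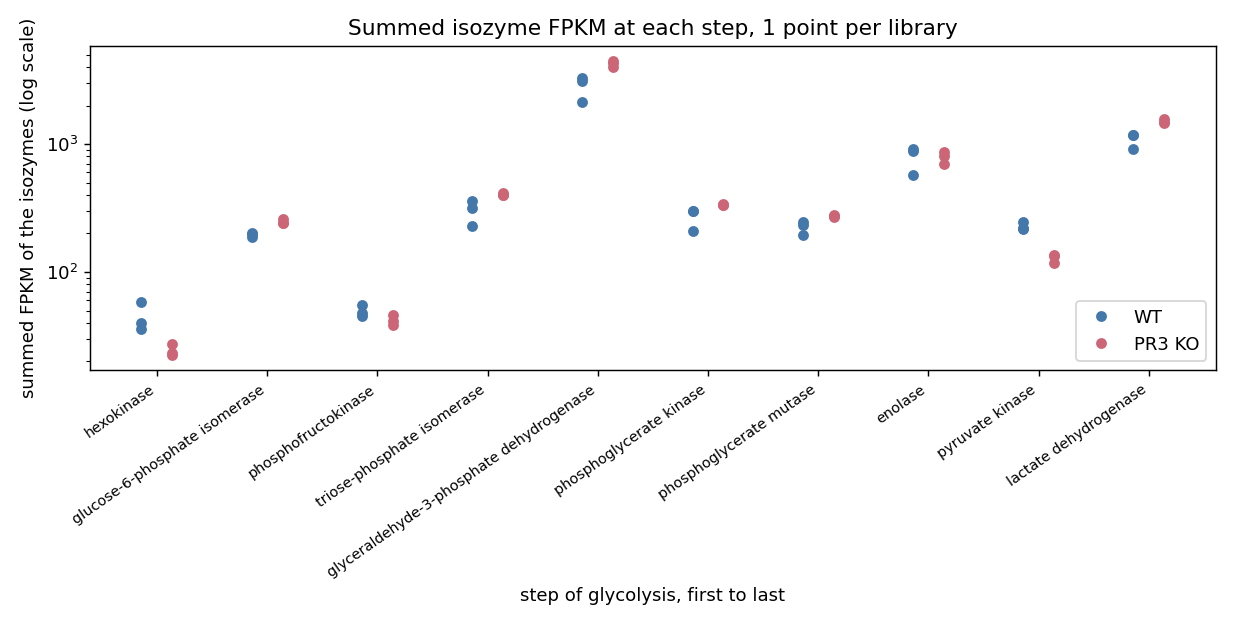
Summed FPKM of the isozymes at 10 steps of glycolysis (vertical axis, log scale), with 1 point per library. The hexokinase and pyruvate kinase points of PR3 KO lie below those of WT, and the glucose-6-phosphate isomerase, triose-phosphate isomerase, glyceraldehyde-3-phosphate dehydrogenase, phosphoglycerate kinase, phosphoglycerate mutase and lactate dehydrogenase points lie above.

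The regulators of fructose-2,6-bisphosphate, the metabolite that switches phosphofructokinase on, had 4 tested members, and 0 passed (limma), with 1 lower at an unadjusted p under 0.05. Pfkfb3 was at 5.39 ± 0.687 against 8.91 ± 3.42 FPKM, Tigar at 2.56 ± 0.297 against 3.25 ± 0.16 FPKM and Pfkfb4 at 2.78 ± 0.881 against 3.53 ± 0.78 FPKM (limma adjusted p = 0.0597, 0.0922 and 0.273). Of 7 genes for the steps of gluconeogenesis that oppose glycolysis, 4 rose and 1 fell (limma), with a median of 0.67, and after rescaling 6 were higher, with a median of 0.995. Pck1, the enzyme that makes phosphoenolpyruvate in the cytosol, rose by 1.81, Pcx, which carboxylates pyruvate, by 1.09, and Fbp2, which opposes phosphofructokinase, by 1.03 (limma adjusted p = 0.00211, 0.0031 and 0.00346). Fbp2 was at 15.3 ± 4.05 against 6.92 ± 1.15 FPKM. Fbp1, of the same step, was far more abundant, at 1085 ± 79.6 against 713 ± 236 FPKM. Fbp1 did not pass as deposited (0.67, limma adjusted p = 0.0584) but did with median-of-ratios scaling (0.995, limma adjusted p = 0.0303). Pck2, the mitochondrial counterpart of Pck1, was the 1 that fell (-0.42, limma adjusted p = 0.0303), named after its value was seen, and it did not pass with median-of-ratios scaling (-0.12, limma adjusted p = 0.369).

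Where pyruvate enters mitochondria, 3 of 13 tested genes rose and 2 fell (limma), with a median of 0.22, and with median-of-ratios scaling 7 were higher and 1 lower, with a median of 0.54. The shares over all tested genes were 11.7% risen and 41.1% fallen, or 25.6% higher and 22.2% lower with that scaling. Pdk2, a kinase that shuts pyruvate dehydrogenase off, rose from 106 ± 17.6 to 243 ± 17 FPKM (1.21 on the log2 scale, adjusted p = 0.000942 in limma). Pdk1, a kinase of the same family known as a hypoxia target, fell by 0.49, and Pdp1, a phosphatase that turns the complex on, fell by 0.60 (limma adjusted p = 0.019 and 0.0129). Pdp2, another phosphatase of the complex, rose from 8.37 ± 1.93 to 11.8 ± 1.4 FPKM (0.47 on the log2 scale, adjusted p = 0.039 in limma) and was more abundant than Pdp1, at 1.24 ± 0.229 in PR3 KO and 2.41 ± 0.501 FPKM in WT. The kinase Pdk3 rose from 17.2 ± 2.18 to 22.3 ± 1.14 FPKM (0.36 on the log2 scale, adjusted p = 0.0253 in limma). Pdp2 and Pdk3 were named after their values were seen. Pdk1 did not pass with median-of-ratios scaling (limma adjusted p = 0.255). In the pentose phosphate pathway, 0 of 8 tested genes rose and 2 fell (limma), 1 was higher at an unadjusted p under 0.05, the median was 0.13, and with median-of-ratios scaling 5 were higher and 1 lower. The genes that fell were Rpe, an epimerase of pentose phosphates (-0.67, limma adjusted p = 0.00253), and G6pdx, the entry enzyme (-0.46, limma adjusted p = 0.0243), which did not pass with that scaling (limma adjusted p = 0.365). Tkt, transketolase, was at 98.4 ± 11.4 against 79 ± 2.61 FPKM (limma adjusted p = 0.0562).

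Among the polyol and hexosamine branches, through which excess glucose is diverted in diabetes, 2 of 9 tested genes rose and 1 fell (limma), with a median of -0.00297, and after rescaling 2 were higher, with a median of 0.31. Sord, sorbitol dehydrogenase, rose from 671 ± 159 to 983 ± 62.9 FPKM (0.58 on the log2 scale, adjusted p = 0.0381 in limma), and Pgm3, an enzyme of UDP-GlcNAc synthesis, rose by 0.31 (limma adjusted p = 0.0296). Oga, which removes O-GlcNAc from proteins, fell by 0.35 (limma adjusted p = 0.0162), a call that did not hold with median-of-ratios scaling (limma adjusted p = 0.812). Akr1b3, the aldose reductase gene, was at 61.1 ± 9.88 and 61.2 ± 2.24 FPKM (limma adjusted p = 0.935).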

How the data were processed

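Glomerular RNA of 3 PR3 KO and 3 WT libraries was captured by its poly(A) tail and read by DNBSEQ, per the labels' protocols. The deposited values are FPKM made by the authors, per the file headers, rounded to 2 decimals. Bowtie2 and GRCm38.p6 were used, per the submitters' processing notes; the sources used here do not give the quantification tool, the annotation or the use of strand. Of 22064 Entrez IDs per file, 3242 were empty in all 6 files, and of the remaining 18822, 18770 matched a RefSeq symbol of GRCm38.p6. The members and lists were chosen with earlier results of these data known.

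log2(FPKM + 1) in the 12388 genes whose mean reached 1 FPKM was fitted with limma 3.58.1 and statmod 1.5.0 in R 4.3.3 (genotype as the only term, intensity trend, robust moderation), adjusted over all tested genes. The fit was run on simulated data in which few genes changed, in random directions and with independent noise. That setting differs from these data, where 52.8% of tested genes passed, so it does not check the calls made here. Single values were compared by exact two-sided permutation tests. Named were the 10 members, every other glycolysis gene that passed, and up to 3 genes per further pathway list with the smallest adjusted p. Pfkm, Pklr, Eno1, Tpi1, Fbp1, Pck2, Pdp2, Pdk3, Akr1b3, Aldoart1 and Ly6g were named for comparison outside that rule. Alternatives were median-of-ratios scaling, equal sums without the 10 most abundant genes, a pseudocount of 0.1, no filter, no trend, a replicate block and leaving out each library. Promoter sequences are from RefSeq (GRCm38.p6), where all 10 members matched. The deposited files hold no counts. Of the 5 isozyme shares over which p-values were adjusted, 1 is not reported here, nor are some other isozymes. Python 3.11.15, pandas 2.3.3, numpy 2.4.6, scipy 1.17.1 and matplotlib 3.10.9 were used.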

Additional observations from a re-analysis of the deposited data

How the results depend on the processing

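Hk1, Pfkp and Pkm fell and passed under all 13 alternatives run, with Pkm between -1.07 and -0.67. The members higher in PR3 KO numbered 2 as deposited, 5 with median-of-ratios scaling, 0 to 2 when 1 library was left out and 0 without both WT 2 and PR3 KO 3, an alternative chosen after seeing the data. Pfkl turned from -0.10 to 0.21 with median-of-ratios scaling. Over all genes 1454 were higher and 5091 lower as deposited (22.2% of calls higher), 3158 and 2744 with median-of-ratios scaling (53.5% higher), and 916 to 1518 were higher when 1 library was left out, the lowest without PR3 KO 1 (916) and PR3 KO 3 (936).

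The median log2 fold change of the members tested was 0.25, 0.58 with median-of-ratios scaling, 0.0731 with no filter, which added Hk2, 0.17 to 0.30 when 1 library was left out and 0.13 without both WT 2 and PR3 KO 3. With no filter Hk2 passed (limma adjusted p = 0.0416). The Hk2 share turned from -0.648 percentage points to 0.36 as a log2 ratio of FPKM + 1, where the added 1 exceeds every Hk2 value; the shares of Pfkp, Pklr and Ldha kept their direction in each alternative run. With the replicate number as a block 1 member was higher, as Gpi1 was lost (limma adjusted p = 0.0549), and 3 were lower. Same-numbered libraries deviated with correlations of 0.068, 0.27 and -0.087, and not every library correlated best with its own number. With 3 libraries per genotype, these values give no ground for pairing by number and cannot exclude it. With 3 libraries per genotype the exact tests cannot pass, and at the estimated depth Hk2 rests on few fragments.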
